A study of Mus musculus with 19 samples.

Results

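Normalized mRNA levels of the collagen and laminin genes were described in astrocytes and other cells sorted from the mouse hippocampus. A gene was included when its symbol had the form of a collagen alpha chain (Col, a type number, a, a chain number) or of a laminin chain (Lam, the chain letter a, b or c, a number). In all, 55 of the 60567 listed genes met this rule, 44 collagens and 11 laminins, out of 25896 genes that carried a symbol. Their classes were 6 network (type IV) collagens, 2 multiplexins, 11 laminins, 11 fibrillar collagens, 9 fibril-associated collagens (FACIT), 7 beaded filament and related collagens, 4 transmembrane collagens, 3 short chain collagens, 1 anchoring fibril collagen and Col26a1. The network collagens, multiplexins and laminins form the 19 basement membrane genes.

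Collagens are trimers of alpha chains with a triple helix, and each class builds another kind of polymer: fibrillar collagens form cable-like fibrils, FACIT collagens sit on these fibrils, and type IV collagens join into sheets. A laminin is a trimer of an alpha, a beta and a gamma chain, and laminin and type IV collagen networks, linked by nidogens and by the proteoglycan perlecan, make up basement membranes. In the brain, the basement membrane of blood vessels lies between the vascular cells and the endfeet of astrocytes. Astrocytes are known as a source of laminin with the Lama2 chain, endothelial cells of laminins with the Lama4 and Lama5 chains, and fibroblasts of the meninges and large vessels of fibrillar collagens.

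All mice were males on the C57bl6 strain studied at an age of 9 months, and all had received an adeno-associated viral vector with GFP in the CA1 region of the hippocampus. WT-GFP mice were non-transgenic and APP-GFP mice carried the APP/PS1dE9 transgenes, a chimeric amyloid precursor protein gene with the Swedish mutations and a human presenilin variant. APP-SOCS3 mice carried the same transgenes and received a vector with SOCS3, an inhibitor of JAK-STAT3 signalling, together with the GFP vector at the same total dose of virus. Both viral genes were driven by the gfaABC1D promoter, a synthetic form of the Gfap promoter, so that astrocytes were identified by viral GFP and not by a marker of their own. There were 5 samples of GFP+ astrocytes from APP-SOCS3, 4 from APP-GFP and 7 from WT-GFP mice, while 3 samples of GFP- cells (all other cells of the suspension, after removal of myelin) came from WT-GFP mice. Both hippocampi of a mouse were sorted separately, and whether any samples came from the same mouse is not stated, so that p-values measure the spread between samples.

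Reads counted on genes numbered 19331876 to 32621917 per sample, and a single read amounted to a level of 0.756 to 1.18 depending on the sample. In all, 4 samples, WT-GFP replicates 1, 2 and 3 and APP-GFP replicate 2, had 15575 to 19198 genes above 0, against 21602 to 26757 genes in the other 12 GFP+ samples and 30807 to 31897 genes in GFP- cells. Counts of members called are also given without these 4 samples, and so are results of some single members. Socs3, carried by the vector, had levels of 13296 to 37750.1 in the 5 APP-SOCS3 samples, where APP-GFP astrocytes had 438 to 1639. The GFP- cells of WT-GFP mice, which received no SOCS3 vector, had Socs3 levels of 10319.7 to 17689, overlapping those of APP-SOCS3 astrocytes. All 8 astrocyte markers on the list used (Aqp4, Aldoc, Slc1a2, Slc1a3, Gja1, Aldh1l1, Fgfr3 and Gjb6) passed the test as higher in GFP+ samples, while 12 of 12 endothelial, 10 of 10 mural, 6 of 8 fibroblast and 8 of 8 microglial markers were called lower. So were 5 of 6 choroid plexus and 5 of 6 neuronal markers. Of 5 oligodendrocyte precursor markers, 4 were called lower and 1 higher. The 6 oligodendrocyte markers were mostly not lower, with 2 called higher and 1 lower.

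Promoter windows are shown for the members whose levels carry the results that follow: Col4a1 and Col4a2, the pair of main type IV chains, Lamb2, the laminin chain with the highest level per kb, and Col11a2, the fibrillar chain whose APP-SOCS3 and APP-GFP levels did not overlap. Each window holds 250 bases before and 50 bases after a RefSeq transcription start on GRCm38.p6 (mm10), 5′ to 3′ on the strand of the gene. Capitals mark every match on either strand to TTCNNNGAA, which is the core sequence recognised by STAT factors. They also mark CCAAT, which many promoters hold upstream of the start. The GC box was searched as GGGCGG and is shown in capitals too. The last motif shown in this way was the core promoter element TATAAA.
Col4a1, chr8:11312777-11313076, minus strand: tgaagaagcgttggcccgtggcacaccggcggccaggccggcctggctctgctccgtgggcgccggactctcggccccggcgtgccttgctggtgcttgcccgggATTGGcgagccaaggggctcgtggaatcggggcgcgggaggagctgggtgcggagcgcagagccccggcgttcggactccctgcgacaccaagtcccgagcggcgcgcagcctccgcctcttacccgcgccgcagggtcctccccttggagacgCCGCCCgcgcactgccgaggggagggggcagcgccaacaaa
Col4a2, chr8:11312555-11312854, plus strand: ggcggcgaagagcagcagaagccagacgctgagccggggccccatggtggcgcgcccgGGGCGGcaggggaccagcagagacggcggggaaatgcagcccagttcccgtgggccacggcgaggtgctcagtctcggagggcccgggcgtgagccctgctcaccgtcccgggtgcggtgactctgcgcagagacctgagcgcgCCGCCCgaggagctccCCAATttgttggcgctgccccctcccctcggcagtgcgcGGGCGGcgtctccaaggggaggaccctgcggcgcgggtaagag
Lamb2, chr9:108479612-108479911, plus strand: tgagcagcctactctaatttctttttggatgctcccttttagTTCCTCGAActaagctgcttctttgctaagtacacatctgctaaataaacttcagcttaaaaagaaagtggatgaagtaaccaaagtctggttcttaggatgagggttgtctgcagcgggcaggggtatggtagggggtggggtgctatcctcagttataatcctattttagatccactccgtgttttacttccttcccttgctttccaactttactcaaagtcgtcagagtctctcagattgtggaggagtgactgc
Col11a2, chr17:34038888-34039187, plus strand: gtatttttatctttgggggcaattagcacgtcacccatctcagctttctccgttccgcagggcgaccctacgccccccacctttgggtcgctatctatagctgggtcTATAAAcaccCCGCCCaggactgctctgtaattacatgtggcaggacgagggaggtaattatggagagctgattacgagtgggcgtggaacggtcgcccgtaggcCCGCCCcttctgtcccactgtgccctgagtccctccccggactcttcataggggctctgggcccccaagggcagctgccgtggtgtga
Col4a1 and Col4a2 stand head to head: these windows share 78 bases, and the spans that the authors' annotation gives for both genes overlap by 22 bases. Among the 32851 mouse promoter windows, 8.3% held TTCNNNGAA, 37.4% held CCAAT, 35.7% held GGGCGG and 13.6% held TATAAA. RefSeq windows were found for 40 of the 55 members, and TTCNNNGAA was present for 3 of them (Lamb2, Col28a1 and Col6a5), CCAAT for 14, GGGCGG for 25 and TATAAA for 5. Counted by window, 6.82% of the 44 windows of these members held TTCNNNGAA, 31.8% CCAAT, 59.1% GGGCGG and 11.4% TATAAA. A match is a stretch of letters and was not tested as a binding site.

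Only 13 of the 55 members had a level above 0 in each of the 16 GFP+ samples: Lama2, Lama3, Lama5, Lamb2, Lamc1, Col4a1, Col4a2, Col1a1, Col5a3, Col11a2, Col27a1, Col9a3 and Col16a1. By contrast, 50 members were above 0 in all 3 samples of GFP- cells. A WT-GFP astrocyte sample had more than 3 reads for 21 to 44 members, an APP-GFP sample for 22 to 40, an APP-SOCS3 sample for 31 to 36 and a GFP- sample for 49 to 52. Levels were compared between genes only per kb of exon (GENCODE M21), which is approximate because reads had been counted on constitutive regions. On this scale, Lamb2 had the highest mean in WT-GFP astrocytes at 772 ± 311 per kb (SD, n = 7), followed by the FACIT chain Col9a3 at 569 ± 189 per kb (SD, n = 7). The means of Lamb2 and Col9a3 differed by less than the SD of Lamb2. After them, Col16a1 at 253 ± 55.6 per kb (SD, n = 7) and Col11a2 at 228 ± 155 per kb (SD, n = 7), differed by less than their spread. In GFP- cells, Lamb2 at 2617 ± 869 per kb (SD, n = 3) was followed by Col4a2 at 1256 ± 312 per kb (SD, n = 3) and by Col18a1 at 693 ± 419 per kb (SD, n = 3), and these last differed by less than the sum of their SDs.

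**Figure D1:**
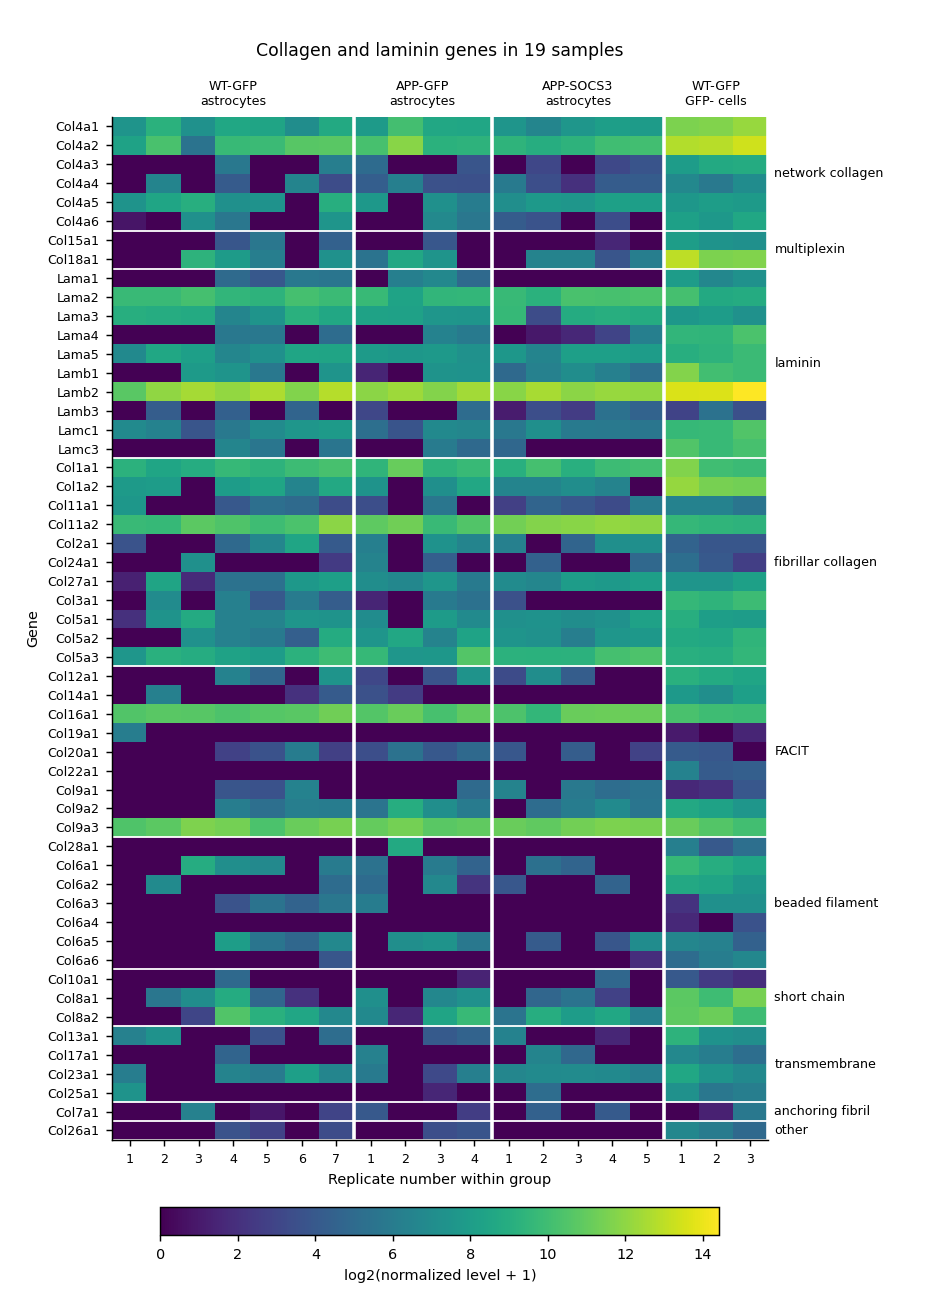
Normalized levels of the members (rows, grouped by class) in the 19 samples (columns, numbered by replicate within each group), as log2(normalized level + 1). Lamb2, Col9a3, Col16a1 and Col11a2 are high in every GFP+ sample, most other members are at or near 0 in many of them, and most members are above 0 in each of the 3 samples of GFP- cells.

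The comparison of GFP+ astrocytes with GFP- cells of WT-GFP mice asks which matrix genes were expressed by the sorted astrocytes rather than by the other cells. Of the 52 members tested (those whose mean level reached 10 in 1 of the groups or both), 31 (59.6%) were called lower in GFP+ astrocytes (limma on log2(level + 1), with a change of 1.5-fold or more and an unadjusted p no higher than 0.05), where 33.5% of the 26709 genes tested were called lower. Only Col11a2 and Col16a1 were called higher, where 9.25% of all genes were, and 19 members were not called. With the count tests edgeR and DESeq2, the calls of Col4a6, Col5a2, Col6a1, Col6a2, Col8a2, Col9a2, Col12a1, Col13a1, Col14a1, Col17a1 and Lama1 were lost. The call of Col25a1 was lost with edgeR. With an adjusted p under 0.05, 24 members passed, against 31.9% of all genes. The median log2 fold change (GFP+ minus GFP-) was -3.70 over the members tested and -1.31 over all genes tested. Rescaling samples to equal totals or to equal upper quartiles moved the median of all genes by -0.18 and 0.48, and the members' median then differed from it by -2.38 and -2.45, against -2.39. Since these are bulk samples, fewer cells of a type and less RNA per cell cannot be told apart.

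**Figure D2:**
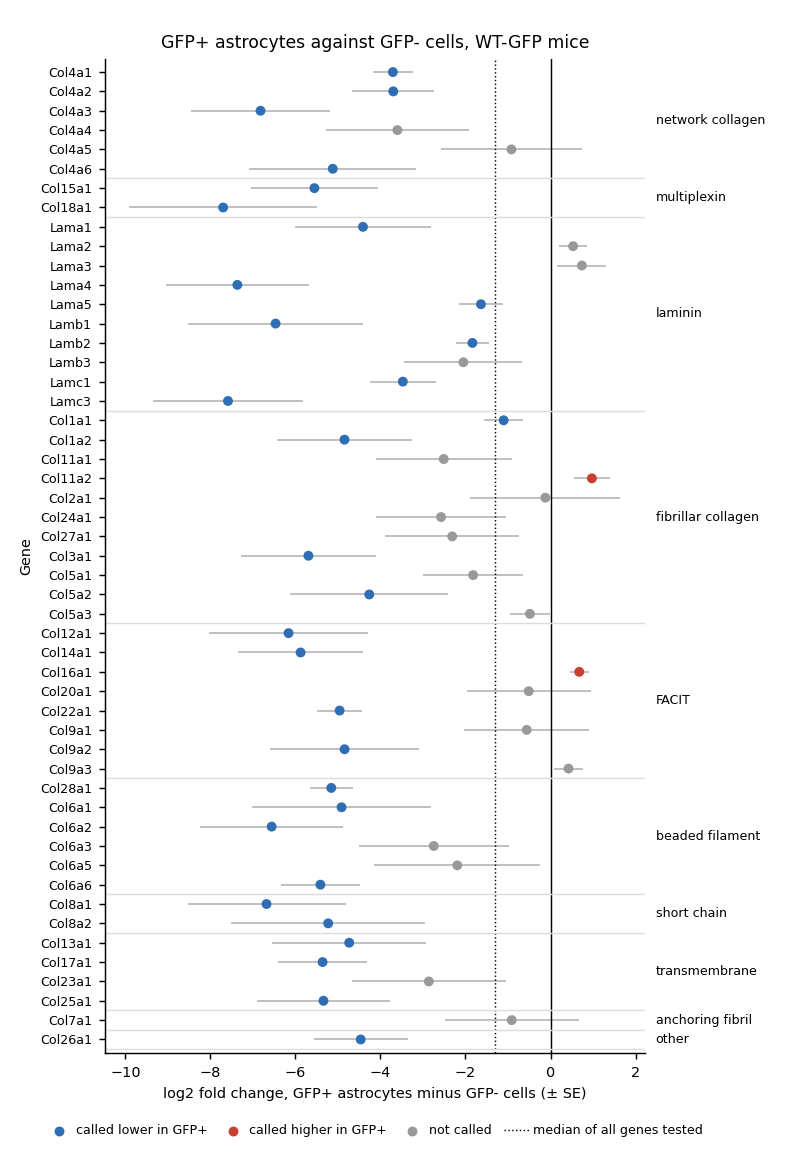
Log2 fold change of members tested (GFP+ astrocytes minus GFP- cells of WT-GFP mice, 7 and 3 samples, limma, bars show SE), grouped by class. Points left of 0 are lower in GFP+ astrocytes, where 31 are called lower (blue), Col11a2 and Col16a1 are called higher (red), and the dotted line marks the median of all genes tested at -1.31.

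Of the 19 basement membrane genes, 13 (68.4%) were called lower in GFP+ astrocytes, where 33.5% of all genes tested were. None was called higher, and 11 had an adjusted p under 0.05. The main network collagen chains, Col4a1 and Col4a2, had high levels in GFP- cells. Col4a1 levels were 136 to 594 (median 340.0) in the 7 GFP+ samples and 3081, 3302 and 4783 in GFP- cells, and the groups did not overlap. The log2 fold change of Col4a1 was -3.71 ± 0.48 (SE), with a limma adjusted p of 0.000164 and an exact permutation p of 0.00833, the smallest that 7 against 3 samples allow. Col4a2 levels were 44.7 to 1684 (median 909) in GFP+ astrocytes and 6880.2, 7387 and 10678 in GFP- cells, from which they differed on the log2 scale by -3.70 ± 0.97 (SE, limma adjusted p = 0.0144), again with no overlap. The ratio of Col4a2 to Col4a1 per kb was 2.52 in each of the 3 GFP- samples and ranged from 0.32 to 13.6 in the 7 GFP+ samples, in which both genes were lower.

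The remaining type IV chains form other networks. Col4a3, a chain of the network found in kidney and some other specialised membranes, was at 0 in 5 of 7 GFP+ samples and reached 246, 426 and 469 in GFP- cells (log2 fold change -6.82 ± 1.65 SE, limma adjusted p = 0.00965). Col4a6, which pairs with Col4a5 in another network, was 0 to 179 (median 0.759) in GFP+ astrocytes and 296, 206 and 381 in GFP- cells (log2 fold change -5.12 ± 1.96 SE, limma adjusted p = 0.0681), and its call was lost without GFP- replicate 1, 2 or 3 (log2 fold changes of -5.36 to -4.91). Col4a5 itself was not called: its levels were 0 to 537 (median 166) in GFP+ astrocytes and 199, 263 and 235 in GFP- cells, and the groups overlapped. In WT-GFP replicate 3, where Col4a5 was at 537, it exceeded Col4a1 at 158 and Col4a2 at 44.7. Per kb, the share of Col4a5 in the summed type IV chains was 20.8 ± 20.3% (SD, n = 7) among WT-GFP astrocyte samples but 1.90 ± 0.441% (SD, n = 3) among GFP- samples. The multiplexins Col15a1 and Col18a1, which carry heparan or chondroitin sulfate and lie at the border of basement membranes, were both called lower. Col15a1 levels were 0 to 51.9 (median 0) in GFP+ astrocytes and 257, 171 and 153 in GFP- cells, without overlap. Col18a1, the precursor of endostatin, was at 0 in 3 of 7 GFP+ samples and at most 639 in the others, but 8258, 3022 and 3325 in GFP- cells (log2 fold change -7.70 ± 2.21 SE, limma adjusted p = 0.0218). The Col18a1 entry overlaps that of Gm7775, and the library kit did not mark the strand, so that reads of the overlap could not be assigned by strand.

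Among the 11 laminins, 7 (63.6%) were called lower in GFP+ astrocytes, against 33.5% of all genes tested, none was called higher, and the alpha chains divided. Lama2 levels were 652 to 1139 (median 877) in GFP+ astrocytes and 1165, 426 and 462 in GFP- cells. Its groups overlapped because of 1 high GFP- sample, and the log2 fold change of 0.53 ± 0.33 (SE) was not called (limma adjusted p = 0.244). Lama3, an alpha chain best known from epithelia, had levels of 92.5 to 570.1 (median 459) in GFP+ astrocytes and 197, 253 and 159 in GFP- cells, and was not called either (log2 fold change 0.74 ± 0.58 SE, limma adjusted p = 0.342). Lama4, the endothelial chain, was at 0 in 4 of 7 GFP+ samples and at most 54.5 in the others, against 717, 693 and 1288 in GFP- cells. This gave a log2 fold change of -7.37 ± 1.67 (SE, limma adjusted p = 0.00699). Lama5, present in most adult basement membranes, was 96.4 to 379 (median 285) in GFP+ astrocytes and 526, 636 and 914 in GFP- cells (log2 fold change -1.64 ± 0.51 SE, limma adjusted p = 0.0311), a smaller difference than that of Lama4 but also without overlap. Lama1, an embryonic and pial chain, was low throughout, at 0 to 53.9 (median 14.7) and 250.5, 102 and 156, and was called lower in GFP+ astrocytes (limma adjusted p = 0.0554). Its call was lost with edgeR and DESeq2, and without GFP- replicate 1 or 3 (log2 fold changes of -4.42 to -4.08).

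Lamb2 was the main beta chain of GFP+ astrocytes. Lamb2 levels were 1722 to 7275 (median 4321) in GFP+ astrocytes and 12506, 13235 and 22003 in GFP- cells, which were higher in each sample (log2 fold change -1.84 ± 0.40 SE, limma adjusted p = 0.00509). Lamb1 was at 0 in 3 of 7 GFP+ samples and 3403, 1071 and 909 in GFP- cells, and the share of Lamb2 in the beta chains per kb was 98.8 ± 1.08% (SD, n = 7) among GFP+ and 92.7 ± 6.24% (SD, n = 3) among GFP- samples. Lamc1 levels were 12.9 to 236 (median 118) and 798, 844 and 1439 (log2 fold change -3.47 ± 0.78 SE, limma adjusted p = 0.00634). Lamc3, another gamma chain, was at 0 in 4 of 7 GFP+ samples and 1443, 831 and 1195 in GFP- cells (log2 fold change -7.59 ± 1.77 SE, limma adjusted p = 0.00798). Per kb, Lamc3 was at 189.8 ± 50.5 per kb (SD, n = 3) in GFP- cells and Lamc1 at 124 ± 43.2 per kb (SD, n = 3). The alpha chain share of Lama2 was 48.8 ± 8.01% (SD, n = 7) among GFP+ samples of WT-GFP mice, against 19.6 ± 11.1% (SD, n = 3) among GFP- samples, and that of Lama4 2.09 ± 2.95% (SD, n = 7) and 34.4 ± 8.32% (SD, n = 3), with no overlap between groups for either chain. These shares are a description and were not tested.

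**Figure D3:**
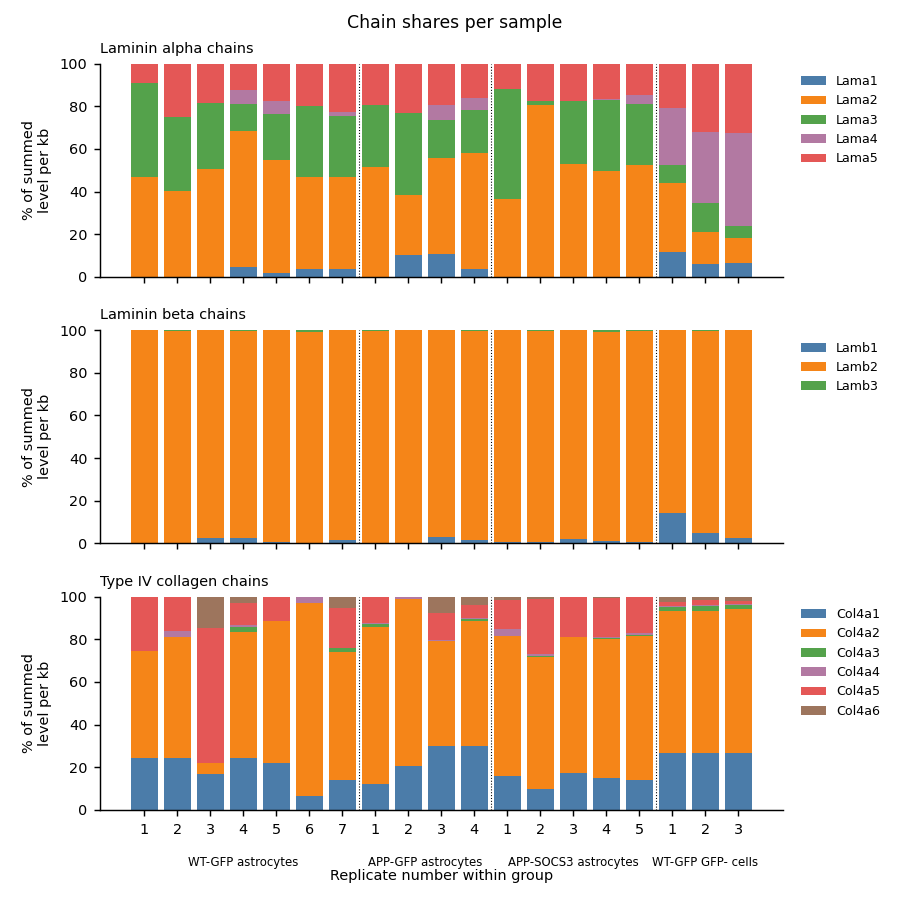
Share of each chain in the summed level per kb of its kind (laminin alpha chains, laminin beta chains and type IV collagen chains) in each of the 19 samples, numbered by replicate within group. Lama2 is the largest alpha share in most GFP+ samples while Lama4 and Lama5 together exceed it in each GFP- sample, Lamb2 fills 97.1% to 100% of the beta share in GFP+ samples and 85.7% to 97.5% in GFP- cells, and the type IV shares are alike in the 3 GFP- samples but vary among GFP+ samples.

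Of the 11 fibrillar collagens, 4 were called lower in GFP+ astrocytes (Col1a1, Col1a2, Col3a1 and Col5a2), Col11a2 was called higher and 6 were not called. The share called lower, 36.4%, was close to the 33.5% of all genes tested. Both chains of type I collagen, the main fibril protein of connective tissue, were lower by different amounts. Col1a2 levels were 0 to 412 (median 252) in GFP+ astrocytes and 4458, 2783 and 2588 in GFP- cells (log2 fold change -4.85 ± 1.60 SE, limma adjusted p = 0.0393), without overlap. Col1a1 levels were 362 to 1192 (median 649) and 3296, 1023 and 897, where the highest GFP+ sample passed 2 GFP- samples, and the log2 fold change was -1.10 ± 0.46 (SE, limma adjusted p = 0.09). Its call was lost without the 4 samples with few genes detected (-0.72), with equal upper quartiles (-0.69) and without WT-GFP replicate 1, 2, 3 or 5 or GFP- replicate 1 (log2 fold changes of -1.09 to -0.51). Col3a1, which forms fibrils with type I, was 0 to 123 (median 18) in GFP+ astrocytes and 791, 665 and 941 in GFP- cells (log2 fold change -5.69 ± 1.58 SE, limma adjusted p = 0.0189). Col5a2, a chain of type V collagen, was 0 to 474 (median 58.0) and 429, 405 and 683, with overlap, and its call was lost without WT-GFP replicate 1, 2 or 6 or GFP- replicate 1, 2 or 3 (log2 fold changes of -4.40 to -3.48).

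Col11a2, a minor fibrillar chain that controls fibril width and is best known from cartilage, went the other way. Its levels were 819.9 to 3859 (median 1294) in GFP+ astrocytes and 775, 682 and 629 in GFP- cells, and the lowest GFP+ sample was above the highest GFP- sample. The log2 fold change was 0.97 ± 0.43 (SE), with a limma adjusted p of 0.105, and this call was lost after scaling to equal totals (0.80) and without WT-GFP replicate 3, 4 or 6 or GFP- replicate 1, 2 or 3 (log2 fold changes of 0.90 to 1.05). It was also lost in a fit with the replicate number as a block. Col5a3 and Col5a1, chains of type V collagen that start fibrils, were not called: Col5a3 levels were 192 to 967 (median 478) and 548, 513 and 746, and Col5a1 levels 3.04 to 443 (median 166) and 522, 276 and 255. Col27a1, a chain of developing cartilage whose entry overlaps Mir455, was 1.52 to 337 (median 42.3) in GFP+ astrocytes and 184, 185 and 295 in GFP- cells, with overlap.

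FACIT collagens also divided. Col16a1, which sits on fibrils and next to basement membranes, had levels of 1332 to 2494 (median 1629) in GFP+ astrocytes and 1264, 1003 and 913 in GFP- cells, all lower than any GFP+ sample. Its log2 fold change was 0.68 ± 0.22 (SE), with a limma adjusted p of 0.0364 and an exact permutation p of 0.00833. This call was lost after scaling to equal totals (0.50) and without WT-GFP replicate 7 or GFP- replicate 3 (log2 fold changes of 0.57 to 0.58). It was also lost in a fit with the replicate number as a block. Col9a3, a chain of cartilage type IX collagen, was high in both populations, at 1279 to 3146 (median 2216) and 2278, 1541 and 1069 (log2 fold change 0.42 ± 0.33 SE, limma adjusted p = 0.349) and its entry overlaps that of Tcfl5. Its partner Col9a2 was instead called lower, at 0 to 71.5 (median 37.2) and 423, 318 and 194, and so were Col12a1, Col14a1 and Col22a1. The Col9a2 call was lost without GFP- replicate 1 or 2 (log2 fold changes of -4.79 to -4.59). Col12a1 and Col14a1, found on fibrils of tendon and skin, had GFP- levels of 576, 448 and 356 and of 211, 138 and 284, and at most 174 and 78.4 in a GFP+ sample. Both calls were lost with edgeR and with DESeq2. Col22a1 was at 0 in all 7 GFP+ samples and 82.8, 16.6 and 19.4 in GFP- cells. Against a floor of 3 reads per sample, this was at least 13.0-fold below the GFP- mean, which the sample at 82.8 raised.

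Of the 25 remaining collagens, FACIT included, 22 were tested. Of these, 14 (63.6%) were called lower, against 33.5% of all genes tested, and Col16a1 higher. Among the beaded filament collagens, which link cells to fibrils, Col6a1, Col6a2, Col6a6 and Col28a1 were called lower. Col6a1 levels were 0 to 493 (median 62.0) in GFP+ astrocytes and 807, 503 and 354 in GFP- cells, with overlap, and its call was lost without WT-GFP replicate 1, 2 or 6 or GFP- replicate 1, 2 or 3 (log2 fold changes of -5.20 to -4.23). Col6a2 levels were 0 to 117 (median 0) and 425, 345 and 201, without overlap. Col28a1 was at 0 in all 7 GFP+ samples and 73.0, 15.1 and 37.1 in GFP- cells, at least 13.7-fold below the GFP- mean against the same floor of 3 reads. The short chain collagens of endothelial linings, Col8a1 and Col8a2, were both called lower. Col8a1 levels were 0 to 462 (median 26.0) and 1764, 979 and 2871, while Col8a2 spread from 0 to 1442 in GFP+ astrocytes and overlapped the GFP- values of 1833, 2284 and 989, and its call was lost without WT-GFP replicate 1, 2, 3 or 7 or GFP- replicate 1, 2 or 3 (log2 fold changes of -5.58 to -4.33). The transmembrane collagens Col13a1, Col17a1 and Col25a1 and the short secreted Col26a1 were called lower too, from means of 40.8, 3.37, 24.1 and 3.84 in GFP+ astrocytes to 316, 70.0, 93.3 and 64.7 in GFP- cells. Col17a1 and Col25a1 were each above 0 in 1 of 7 GFP+ samples, at 23.6 in WT-GFP replicate 4 and 169 in replicate 1, and the Col25a1 value lay above those of all 3 GFP- samples (157, 51.4 and 71.6). The highest GFP+ sample of Col13a1, at 160.1, also overlapped the GFP- samples, the lowest of which was at 139.7, while Col17a1 and Col26a1 did not overlap. The call of Col13a1 was lost without GFP- replicate 1 or 2 (log2 fold changes of -5.03 to -4.04). The transmembrane Col23a1, at 0 to 282 (median 69.1) in GFP+ astrocytes and 383, 174 and 114 in GFP- cells, and the beaded filament Col6a3, at 0 to 50.8 (median 11.8) and 3.27, 151 and 148, were not called.

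The proteins that work with these chains were examined from lists of their own. Of 10 other basement membrane proteins, 6 (60.0%) were called lower in GFP+ astrocytes (Nid1, Hspg2, Agrn, Fn1, Ntn4 and Tinagl1) and Fbln1, a fibulin that binds laminin, was called higher. Mean levels of the nidogen Nid1 were 90.8 ± 118 (SD, n = 7) with GFP and 2036 ± 260.1 (SD, n = 3) without, and those of the perlecan gene Hspg2 108 ± 127 (SD, n = 7) and 2208 ± 714 (SD, n = 3). Fbln1 reached 1959 ± 1015 (SD, n = 7) and 777 ± 185 (SD, n = 3) (log2 fold change 1.23 ± 0.36 SE, limma adjusted p = 0.025). Of 16 genes of collagen maturation, 6 (37.5%) were called lower, close to the 33.5% of all genes tested. Among them were the cross-linking enzyme Lox and the collagen chaperone Serpinh1, and 1 of the 16 was called higher. That was P4ha3, an alpha subunit of collagen prolyl hydroxylase, with 269 ± 101 (SD, n = 7) against 32.5 ± 26.3 (SD, n = 3) (log2 fold change 3.19 ± 0.56 SE, limma adjusted p = 0.00149). Of 11 receptors tested, 6 (54.5%) were called lower, with the laminin receptor Bcam at 1830.0 ± 749.9 (SD, n = 7) and 13319.7 ± 3492 (SD, n = 3). Dystroglycan, the laminin receptor of astrocyte endfeet encoded by Dag1, had the highest mean of its list in GFP+ astrocytes at 8940.2 ± 3189.7 (SD, n = 7), and 8453 ± 510.4 (SD, n = 3) in GFP- samples, and its log2 fold change was 0.01 ± 0.28 (SE).

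Beside these differences, the summed level of the 12 endothelial markers was 3631 to 35965 for WT-GFP astrocytes but 134614 to 213158 for GFP- samples, that of the 10 mural markers 3572 to 34369 and 126478 to 167756, and that of the 8 fibroblast markers 669.6 to 2554 and 6421 to 23909.6. Choroid plexus markers summed to 68.1 to 86498 and 42814 to 120135. The endothelial markers Cldn5, Pecam1 and Flt1 were above 0 in each of the 7 GFP+ samples, and the fibroblast marker Lum was at 0 in 3 of them. The part of these cells in the members' levels was not tested.

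The comparison of APP-GFP with WT-GFP astrocytes asks whether the amyloid transgenes altered matrix expression in astrocytes. Of 49 members tested, 1 was called, where 2.23% of the 22969 genes tested were, and by limma none passed an adjusted p under 0.05, against 0.00435% of all genes. At an unadjusted p under 0.05, limma gave 1 member, edgeR 2 and DESeq2 1, and neither of the count tests gave a member with an adjusted p under 0.05. The median log2 fold change (APP-GFP minus WT-GFP) was 0.13 over the members and 0.09 over all genes. The member called was Col9a2, with levels of 46.2, 497, 140.5 and 63.6 in APP-GFP astrocytes and 0 to 71.5 (median 37.2) in WT-GFP astrocytes (log2 fold change 3.55 ± 1.60 SE, limma adjusted p = 0.999, exact permutation p = 0.0545). Its highest value came from APP-GFP replicate 2 and its 3 values of 0 from WT-GFP replicates 1, 2 and 3. Without these 4 samples, chosen after seeing the data for their few genes detected, the log2 fold change was 0.34 and the call was lost. It was also lost without APP-GFP replicate 2, 3 or 4 or WT-GFP replicate 1, 2 or 3 (log2 fold changes of 2.87 to 3.85), and with edgeR and DESeq2. Over all alternatives, adjusted p ranged from 0.893 to 1.0.

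None of the most abundant chains was called. Lamb2 levels were 3866, 5026, 3417 and 5423 in APP-GFP astrocytes, inside the WT-GFP range of 1722 to 7275 (median 4321), with a log2 fold change of 0.02 ± 0.33 (SE). Col9a3 and Col16a1 differed by 0.00 ± 0.27 (SE) and 0.01 ± 0.22 (SE) on the log2 scale. Col11a2 levels were 1820.3, 2535, 881 and 1431, also inside the WT-GFP range, and Lama2 levels were 857, 334, 726 and 756, where APP-GFP replicate 2 was below all WT-GFP samples (log2 fold change -0.49 ± 0.29 SE, limma adjusted p = 0.999). Col4a1 and Col4a2 were 227, 1091, 402 and 365 and 1202, 3659, 591 and 642, in each case highest in replicate 2, with log2 fold changes of 0.65 ± 0.52 (SE) and 0.86 ± 0.89 (SE). Replicate 2 also held the only value of Col28a1 above 0 in any GFP+ sample, 427. The summed endothelial markers were 5525 to 30289 in APP-GFP astrocytes, and 0 of the 12 markers were called between APP-GFP and WT-GFP, as against 1 of 8 fibroblast markers, which was higher in APP-GFP.

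The comparison of APP-SOCS3 with APP-GFP astrocytes asks what inhibition of JAK-STAT3 signalling changed in astrocytes of the transgenic mice. Of 44 members tested, 4 were called, where 5.7% of the 22844 genes tested were: Col11a2 and Col23a1 were higher and Col4a1 and Lama1 lower in APP-SOCS3 astrocytes. By limma none passed an adjusted p under 0.05, against 0.00438% of all genes. The count of members at an unadjusted p under 0.05 was 4 by limma, 5 by edgeR and 3 by DESeq2, and an adjusted p under 0.05 was given to 0 members by edgeR and to 2 (Col11a2 and Lama1) by DESeq2. The median log2 fold change (APP-SOCS3 minus APP-GFP) was -0.34 over the members and 0.08 over all genes tested. Without APP-GFP replicate 2, which had few genes detected, 6 members were called, 4 of them lower (Lama1, Col3a1, Col6a1 and Col8a1), and without APP-GFP replicate 1 the count was 7. Over all genes, 1279 of 23153 tested were called without replicate 2, 871 of them lower, and 1836 of 22905 without replicate 1. With all samples, 1301 of 22844 were called, 769 of them lower.

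Col11a2 was higher in all 5 APP-SOCS3 samples than in any APP-GFP sample. Its levels were 2641, 3436, 3735, 4358 and 3798 in APP-SOCS3 astrocytes, against 1820.3, 2535, 881 and 1431 in APP-GFP astrocytes. The log2 fold change was 1.19 ± 0.27 (SE), with a limma adjusted p of 0.53 and an exact permutation p of 0.00794, the smallest that 5 against 4 samples allow. The call by the thresholds held in each of the 9 fits without 1 sample and without the samples with few genes detected (log2 fold change 1.43), and was lost only with Benjamini-Hochberg adjustment. Across alternatives, its adjusted p lay between 0.0123 and 0.895. No TTCNNNGAA was found in the promoter window of Col11a2 shown above, which says only that these letters are not in this window. The entry of Col11a2 (chr17:34039138-34066684) overlaps no other named entry.

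Lama1 was at 0 in all 5 APP-SOCS3 samples and 0, 73.1, 104 and 29.6 in the 4 APP-GFP samples. APP-SOCS3 levels were thus at least 17.6-fold below the APP-GFP mean, counted against a floor of 3 reads per sample. Its limma adjusted p was 0.64 and its exact permutation p 0.0476, and the groups shared the value 0. The call held without each of the 9 samples in turn and without the samples with few genes detected. Col4a1 levels were 181, 92.1, 192, 269.5 and 245 in APP-SOCS3 astrocytes and 227, 1091, 402 and 365 in APP-GFP astrocytes, so that the groups overlapped through APP-GFP replicate 1 (log2 fold change -1.24 ± 0.47 SE, limma adjusted p = 0.69, exact permutation p = 0.0317). Without APP-GFP replicate 2, which had few genes detected and the highest Col4a1 level, the log2 fold change was -0.80 and the call was lost, as it was without APP-SOCS3 replicate 2 (-0.99). The Col4a1 call was also lost in a fit with the replicate number as a block. Across alternatives, the adjusted p of Col4a1 lay between 0.218 and 0.905, and that of Lama1 between 0.0264 and 0.905. Col4a2, the head-to-head neighbour of Col4a1, was not called, with 664, 505, 630.1, 1030.2 and 1059 in APP-SOCS3 and 1202, 3659, 591 and 642 in APP-GFP astrocytes (log2 fold change -0.61 ± 0.49 SE, limma adjusted p = 0.819). Col23a1, a transmembrane collagen, was 98.3, 120.0, 125, 116 and 73.8 in APP-SOCS3 astrocytes and 58.8, 0, 7.91 and 74.1 in APP-GFP astrocytes, so that 1 sample of each group overlapped (log2 fold change 2.90 ± 1.15 SE, limma adjusted p = 0.724). Its call was lost with edgeR and DESeq2, and without APP-GFP replicate 3 or APP-SOCS3 replicate 2, 3 or 4 (log2 fold changes of 2.68 to 2.87).

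**Figure D4:**
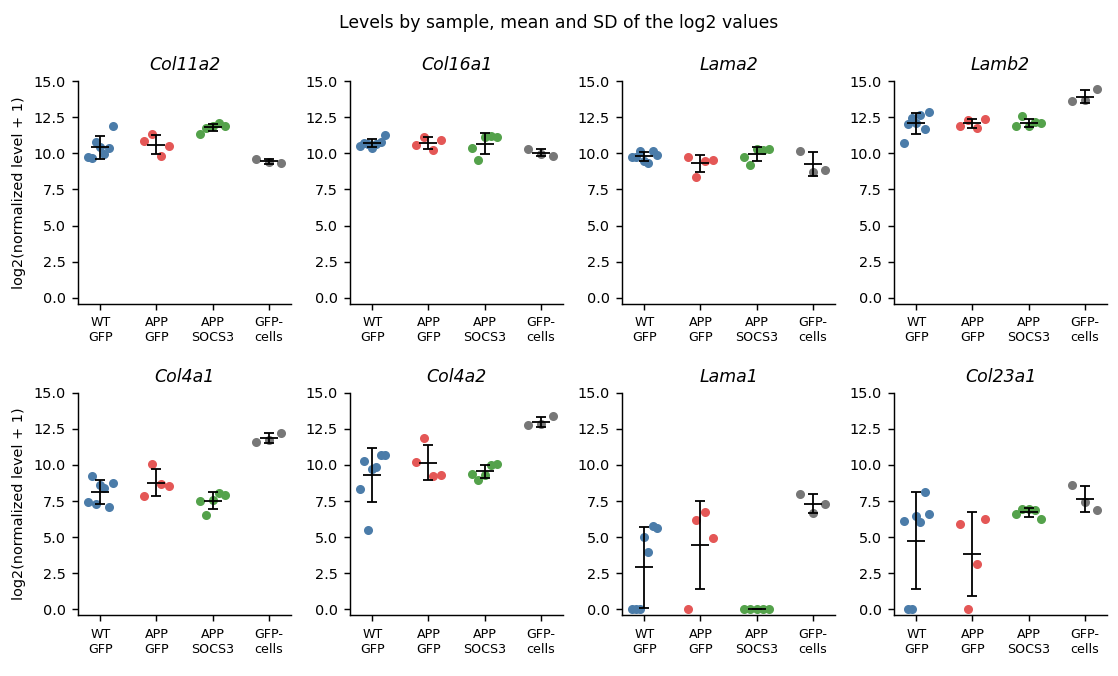
Levels of 8 members by sample as log2(normalized level + 1), with the mean and SD of the log2 values in each group (n = 3 for GFP- cells, and 7, 4 and 5 for the WT-GFP, APP-GFP and APP-SOCS3 astrocytes). The 5 APP-SOCS3 samples are above the 4 APP-GFP samples for Col11a2 and at 0 for Lama1, and the GFP- cells stand above all GFP+ samples for Lamb2, Col4a1 and Col4a2.

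Markers of vascular and other cells moved in the same comparison. All 12 endothelial and all 8 microglial markers, 5 of 10 mural and 4 of 8 fibroblast markers were called lower in APP-SOCS3 than in APP-GFP astrocytes, and 0 of 8 astrocyte markers were called. The summed endothelial markers were 1008 to 6117 in APP-SOCS3 and 5525 to 30289 in APP-GFP astrocytes, the mural ones 2486 to 4178 and 4359 to 21763, the fibroblast ones 384 to 664 and 635 to 2861, and the microglial ones 7301 to 12525 and 13450.3 to 65256. In APP-SOCS3 astrocytes, the fibroblast markers Lum and Thbs2 and the mural marker Abcc9 were at 0 in 4 of 5 samples and the endothelial markers Cdh5 and Abcb1a in 2 of 5. The part of these cells in the differences of Col4a1 and Lama1, both of which were higher in GFP- cells than in astrocytes, was not tested. Mean Col11a2 levels were 3594 ± 628 (SD, n = 5) in APP-SOCS3 astrocytes and 696 ± 74.0 (SD, n = 3) in GFP- cells.

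The main laminin and FACIT chains of the astrocytes were not called. Lamb2 levels were 3736, 6023, 3867, 4685 and 4399.5 in APP-SOCS3 astrocytes, a log2 fold change of 0.04 ± 0.19 (SE), and Col9a3 levels were 2206, 1881, 2666, 3059 and 2815, a log2 fold change of 0.26 ± 0.19 (SE). Lama2 levels were 851, 595, 1248, 1219 and 1273, of which 3 were above all APP-GFP samples, with a log2 fold change of 0.66 ± 0.33 (SE, limma adjusted p = 0.814). Lama3 spread from 9.30 to 796, with the lowest value in replicate 2. The summed basement membrane genes were 6749 to 8578 in APP-SOCS3 and 6540.0 to 11171 in APP-GFP astrocytes, and the summed fibrillar collagens 4437 to 7247 and 2657 to 5403, sums that include Col11a2. Among the companion genes, Fn1 and Tinagl1 of 9 other basement membrane proteins tested and the receptor Bcam were called lower, and the chaperone Serpinh1 was called higher (3417 ± 513 SD, n = 5, against 2332 ± 746 SD, n = 4, log2 fold change 0.60 ± 0.22 SE, limma adjusted p = 0.683). Bcam had 680.0 ± 238 (SD, n = 5) in APP-SOCS3 and 1635 ± 884 (SD, n = 4) in APP-GFP astrocytes, without overlap (exact permutation p = 0.00794).

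APP-SOCS3 astrocytes were also set beside WT-GFP astrocytes, which differ from them both in genotype and in vector. This comparison and the preceding ones share samples and are not independent. Of 48 members tested, 5 were called, where 5.21% of the 22958 genes tested were: Col11a2 and Col5a3 were higher and Col3a1, Col6a3 and Lama1 lower in APP-SOCS3 astrocytes. By limma none passed an adjusted p under 0.05, against 0.0305% of all genes, while 5 members by limma, 5 by edgeR and 6 by DESeq2 had an unadjusted p under 0.05, and neither count test gave a member with an adjusted p under 0.05. Col11a2 had a log2 fold change of 1.38 ± 0.33 (SE, limma adjusted p = 0.232, exact permutation p = 0.0101). Only WT-GFP replicate 7, at 3859, overlapped the APP-SOCS3 values, and the call held without each of the 12 samples in turn and without the samples with few genes detected (1.13).

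The other calls were lost when single samples were left out. Col5a3 levels were 620.5, 584, 626, 1139.9 and 1353 in APP-SOCS3 and 192 to 967 (median 478) in WT-GFP astrocytes (log2 fold change 0.93 ± 0.40 SE, limma adjusted p = 0.842), and its call was lost without APP-SOCS3 replicate 4 or 5 or WT-GFP replicate 1, 4 or 5 (log2 fold changes of 0.74 to 0.86) and without the samples with few genes detected (0.80). Col3a1 was at 0 in 4 of 5 APP-SOCS3 samples and at 11.0 in the other. Col6a3 and Lama1 were at 0 in all 5, at least 6.26-fold and 7.18-fold below the WT-GFP mean, counted against a floor of 3 reads per sample. Levels of Col3a1, Col6a3 and Lama1 in WT-GFP astrocytes were 0 to 123 (median 18), 0 to 50.8 (median 11.8) and 0 to 53.9 (median 14.7), so that the groups shared the value 0. The call of Col3a1 was lost without APP-SOCS3 replicate 2, 3, 4 or 5 or WT-GFP replicate 2, 4, 5, 6 or 7 (log2 fold changes of -3.20 to -2.71), that of Col6a3 without APP-SOCS3 replicate 1, 2, 3, 4 or 5 or WT-GFP replicate 4, 5, 6 or 7 (log2 fold changes of -2.77 to -2.29) and that of Lama1 without APP-SOCS3 replicate 1, 2, 3, 4 or 5 or WT-GFP replicate 4, 5, 6 or 7 (log2 fold changes of -2.91 to -2.43). In the same comparison 9 of 12 endothelial, 5 of 10 mural and 2 of 7 fibroblast markers tested were called lower, and their part was not tested. Without the samples with few genes detected, 8 of 43 members tested were called, 7 of them lower. Over all genes, 1649 of 22981 tested were then called, 1239 of them lower. In the main fit, 1197 of 22958 were called, 464 of them lower. Col4a2 was among the members then called lower, with a log2 fold change of -0.69, against 0.25 ± 0.74 (SE) with all samples. Of the companion genes, Fn1, Tinagl1 and Bcam were called lower and the integrin chain Itga3 higher, and Bcam again did not overlap (log2 fold change -1.42 ± 0.33 SE, limma adjusted p = 0.217, exact permutation p = 0.00253).

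**Figure D5:**
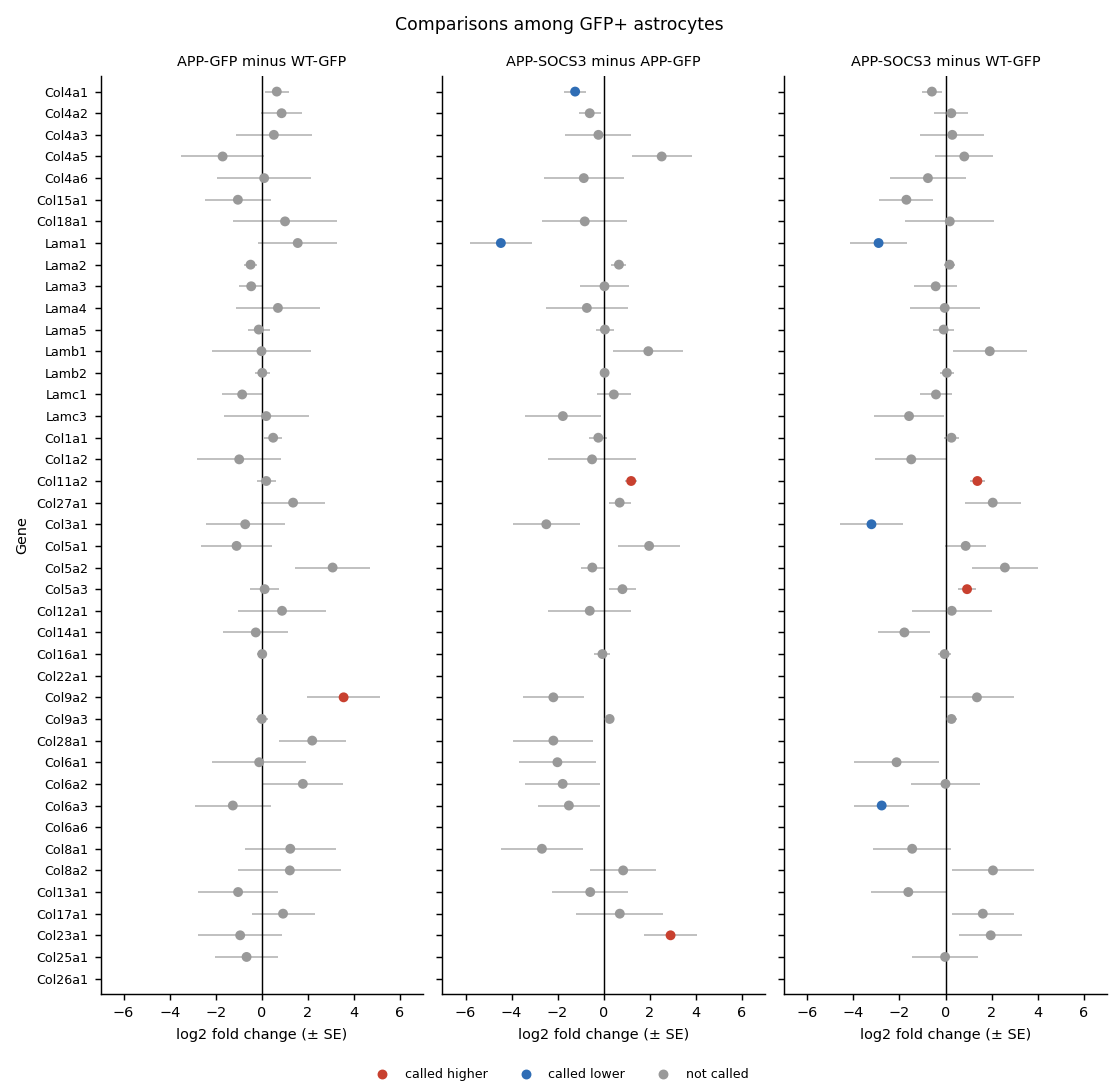
Log2 fold change of the members with values given in the text (rows) in the 3 comparisons among GFP+ astrocytes, by limma with SE bars, where genes under the minimum level in a comparison have no point. Few points are called (red higher, blue lower): Col9a2 in the first panel, Col11a2, Col23a1, Col4a1 and Lama1 in the second, and Col11a2, Col5a3, Col3a1, Col6a3 and Lama1 in the third, and most SE bars reach or pass 0.

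The remaining members that were above 0 in all 16 GFP+ samples were not called among the astrocyte groups. Lama5 levels were 96.4 to 379 (median 285) in WT-GFP, 227, 194, 221 and 153 in APP-GFP and 194, 89.3, 285, 283 and 250.5 in APP-SOCS3 astrocytes, and the 3 ranges overlapped. Lamc1 levels were 12.9 to 236 (median 118) in WT-GFP, 38.0, 12.3, 113 and 98.5 in APP-GFP and 53.0, 145, 59.0, 54.9 and 49.2 in APP-SOCS3 astrocytes, with the highest of the last group in replicate 2. Col1a1 levels were 692, 2176, 629 and 844 in APP-GFP and 542, 1145, 540.1, 954 and 1048 in APP-SOCS3 astrocytes, where only APP-GFP replicate 2 exceeded the WT-GFP range, and the log2 fold changes of APP-GFP and of APP-SOCS3 against WT-GFP astrocytes were 0.49 ± 0.40 (SE) and 0.26 ± 0.32 (SE). Lama3, the laminin alpha chain that was second to Lama2 per kb in WT-GFP astrocytes, was 320.4, 303, 193 and 181 in APP-GFP and 796, 9.30, 462, 532 and 461 in APP-SOCS3 astrocytes, with APP-SOCS3 replicate 2 under every WT-GFP and APP-GFP sample. Col4a5, listed at 0 in WT-GFP replicate 6 and APP-GFP replicate 2, was 203, 0, 149 and 64.5 in APP-GFP and 139, 215, 188, 293 and 274 in APP-SOCS3 astrocytes, and its log2 fold change between these was 2.52 ± 1.31 (SE, limma adjusted p = 0.814, exact permutation p = 0.0476), which was not called. Col27a1 levels were 135, 102, 189 and 57.5 in APP-GFP and 126, 98.6, 248, 212 and 284 in APP-SOCS3 astrocytes, all within the WT-GFP range of 1.52 to 337 (median 42.3).

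The 13 members not described by single values, among them Col2a1, Col4a4, Col6a4, Col6a5, Col7a1, Col9a1 and Col20a1, had a mean level under 100 in every group and were called in no comparison. The highest group mean among them was 72.7 for WT-GFP, 89.7 for APP-GFP and 78.0 for APP-SOCS3 astrocytes, and 96.8 for GFP- cells. Col6a4 was at 0 in all 16 GFP+ samples. Single samples reached 356 for Col2a1, the main cartilage collagen.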

How the data were processed

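RNA from sorted GFP+ and GFP- cells was amplified with a low-input kit that does not mark the strand, and sequenced as paired reads. Per the paper's methods and the submitters' processing notes, the authors aligned reads to mm10 with STAR 2.4.0, counted those on constitutive gene regions of the FAST DB annotation and normalized with DESeq2. Because the kit does not mark the strand, reads of overlapping entries could not be told apart by strand. The deposited values are a normalized signal per gene, the authors having divided each sample's counts by its size factor: 100% of values were whole multiples of 1 read within 0.001 reads. Reads on genes numbered 19331876 to 32621917 per sample. The reads come from PCR and carry no molecular identifiers, so that a floor of 3 reads covers counting error only.

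From these values, limma 3.58.1 (R 4.3.3, empirical Bayes with a mean trend) was run on log2(level + 1), on the samples of both groups compared and on every gene whose mean reached 10 in 1 of them or both. Calls required a change of 1.5-fold or more with an unadjusted p no higher than 0.05. Benjamini-Hochberg adjusted p over all genes tested stands beside it. Fold changes are on the log2(level + 1) scale, where the pseudocount shrinks those of low genes and samples at 0 can make them exceed the ratio of means. Exact tests are 2-sided permutations of the mean log2 level. The fits were tested on simulated data. edgeR 4.0.16 and DESeq2 1.42.0 on recovered reads, other pseudocounts (0.1 and 10), minimum levels, scalings, a fit of all 19 samples, a replicate block and leaving out each sample were alternatives. Leaving out the 4 samples with under 20000 genes detected was added after seeing the data. Members are given by value if a group's mean reached 100 or if they were called, and companion genes when called or highest in their list. Exon lengths came from GENCODE M21 and promoters from RefSeq on GRCm38.p6. The members, classes and gene lists were chosen with earlier results of these data known. A member of the set is not reported here by name or in the figures.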

Additional observations from a re-analysis of the deposited data

Results flagged for a closer look

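Among the members with values given, 126 groups of 4 to 7 samples were examined for a sample that stood apart, that is whose gap to the nearest other sample was a larger share of the group's range than Dixon's 95% limit. Gaps and ranges were taken on log2(level + 1), while the values listed below are levels. In all, 27 groups (21.4%) of 18 genes had one, and in 13 of them all the other samples of the group were at 0. Dixon's limit is set for normal values, so that a chance rate of 1 in 20 does not hold for groups with many values of 0. The reason was not tested.

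In WT-GFP astrocytes, replicate 7 stood highest for Col16a1 (2494) and Col6a6 (13.5), replicate 4 for Col17a1 (23.6) and replicate 1 for Col25a1 (169). Lowest values stood apart at 0 for Col1a2 in replicate 3, at 0 for Col4a5 in replicate 6 and at 3.04 for Col5a1 in replicate 1.

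In APP-GFP astrocytes, replicate 2, which had few genes detected, had a level of 427 for Col28a1, where the other samples were at 0, and levels of 0 for Col1a2, Col5a1 and Col8a1. Replicate 3 stood highest for Col15a1 (13.9) and Col25a1 (1.98), and replicate 1 for Col17a1 (78.8) and Col6a3 (65.2).

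In APP-SOCS3 astrocytes, replicate 1 stood highest for Col13a1 (81.7), Col3a1 (11.0) and Lamc3 (27.6) and was at 0 for Col9a2. Replicate 2 stood highest for Col25a1 (35.3) and Lamc1 (145) and lowest for Lama3 (9.30). Replicate 3 was lowest for Col5a2 (72.0), replicate 4 highest for Col15a1 (1.96), and replicate 5 highest for Col5a1 (299.7) and Col6a6 (2.64) and at 0 for Col1a2.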

How the results depend on the processing

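In GFP+ astrocytes against GFP- cells, 33 members were called, 21 with edgeR and 22 with DESeq2, and 26 to 33 when 1 sample was left out. Equal totals gave 0 higher and 32 lower, and equal upper quartiles 4 higher and 27 lower. Without the samples with few genes detected, 2 were higher and 33 lower. Over all genes, 11419 of 26709 were called in the main fit, 8588 with edgeR and 8955 with DESeq2. Leaving out 1 sample gave 8838 to 11679. Equal totals gave 2034 higher and 9975 lower of all genes, and equal upper quartiles 3710 and 6720. Without the samples with few genes detected, 3008 of all genes were higher and 9352 lower. Between APP-GFP and WT-GFP, 1 member was called. The count was 0 with Benjamini-Hochberg adjustment, with a minimum mean level of 100, with a pseudocount of 0.1 and without the 4 samples with under 20000 genes detected, 2 with all 19 samples in one fit and with edgeR, and 0 to 3 when 1 sample was left out (0 without APP-GFP replicate 2, 3 or 4 or WT-GFP replicate 1, 2 or 3, 2 without WT-GFP replicate 7 and 3 without WT-GFP replicate 6). Over all genes, this comparison had 513 called in the main fit, 991 with all 19 samples in one fit and 659 with edgeR. It had 733 called without the 4 samples and 393 to 677 when 1 sample was left out. Between APP-SOCS3 and APP-GFP, 4 members were called, 0 with Benjamini-Hochberg adjustment and 3 to 7 when 1 sample was left out (7 without APP-GFP replicate 1). Over all genes, 1301 were called in the main fit and 1052 to 1836 when 1 sample was left out (1836 without APP-GFP replicate 1). Between APP-SOCS3 and WT-GFP, 5 were called, 0 with Benjamini-Hochberg adjustment, 2 with a minimum mean level of 100, 8 without the samples with few genes detected, and 1 to 6 when 1 sample was left out (1 without APP-SOCS3 replicate 4 or 5 or WT-GFP replicate 4 or 5, 2 without APP-SOCS3 replicate 3, 3 without APP-SOCS3 replicate 1 or 2 or WT-GFP replicate 6 or 7). Over all genes, this comparison had 1197 called in the main fit and 441 of 12705 at a minimum mean level of 100. It had 1649 called without the samples with few genes detected and 904 to 1435 when 1 sample was left out. Col4a2 in this comparison turned from 0.25 to -0.69 without the samples with few genes detected. Fewer genes were tested at the higher minimum level, and the causes of the other changes were not tested.

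Samples with the same replicate number were not treated as pairs. The correlations of their deviations from the group means were -0.076 to 0.154, which cannot tell whether such samples came from the same mouse. A fit with the replicate block called 34, 3, 3 and 5 members in the 4 comparisons in the order above, and in the last all 5 were higher, against 2 higher and 3 lower without it. Over all genes, that fit called 10999, 663, 1132 and 1433. In the last comparison, 1067 of all genes were higher and 366 lower with the block, against 733 and 464 without it. On the log2(level + 1) scale, a value of 0 in 1 sample can move a fold change, and it moves that of a low gene less than that of a high one.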
